A study of Bos taurus with 179 samples.

Results

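CCL25 (gene ID ENSBTAG00000005581) was followed through oocyte growth, as 1 of 21218 gene IDs in the count table. Its ID was taken from the supplementary tables, which pair it with the symbol, and its counts stood on 1 line. The gene had been chosen by its measured values, selected on the rise of its transcript with diameter in these same oocytes, so its levels, differences and correlations are given as a description, with no test. The oocytes were those of cattle (Bos taurus), with no treatment compared, taken from abattoir ovaries, stripped of their surrounding cells, measured and frozen singly, and their polyadenylated mRNA was amplified from each cell. They were placed by diameter in 8 size groups of 21 (<60 μm), 25 (60–69 μm), 23 (70–79 μm), 24 (80–89 μm), 21 (90–99 μm), 18 (100–109 μm), 19 (110–119 μm) and 14 oocytes (>120 μm), which makes 165 of the 179 deposited. Libraries were made in 2 replicates, 97 oocytes in replicate 1 (reads of 150 bp) and 68 in replicate 2 (reads of 75 bp), each oocyte being in 1 replicate only. The animal, its age and its breed are not given in the sources used here, so the spread between oocytes may include the spread between animals. Growing oocytes were freed by slicing the opened ovaries in a cold medium with cilostamide, a phosphodiesterase inhibitor, after fully grown ones had been aspirated from surface follicles. Which oocyte was collected in which way is not given in the sources used here, so way of collection and diameter cannot be told apart.

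CCL25 is a secreted CC chemokine, best known from the thymus and the small intestine, where it draws developing and gut-homing T cells. It signals through the receptor CCR9 and is taken up without signalling by the atypical receptor ACKR4. Neither receptor was paired with a gene ID, and they were not analysed here. Chemokines in general act through G protein-coupled receptors on other cells, whereas the values here are transcript levels in the oocyte alone.

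The oocyte markers BMP15 (a growth factor secreted by the oocyte), BTG4 (an adaptor for maternal mRNA decay), CPEB1 (a regulator of cytoplasmic polyadenylation) and BCAR4 were counted in 165 of 165 oocytes, and the remaining marker of the list, ACTL8, in 116. The total on genes ranged from 277126 to 8038061 counts per oocyte, with a median of 1763520. CCL25 held 31276 counts in all, 29256 in replicate 1 and 2020 in replicate 2. Of these counts, 85.5% came from the 51 oocytes of 100 μm and above.

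CCL25 was near 0 in the smallest oocytes and reached a median of 463 CPM (counts per 1000000 of the effective library size) in the largest oocytes of replicate 1. In oocytes <60 μm of replicate 1 (n = 3) it was lowest at 0, with a median of 1.90 and a highest value of 2.50 CPM. In replicate 2 (n = 18) the lowest, median and highest values were 0, 1.27 and 6.12 CPM. The replicates overlapped in full at this size.

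At 60–69 μm the replicates parted. In replicate 1 (n = 17) CCL25 ranged from 0.955 to 18.7 CPM with a median of 6.09, and in 13 of these oocytes it was above the highest oocyte <60 μm of the same replicate. In replicate 2 (n = 8) it ranged from 0 to 3.91 CPM with a median of 1.49, and no oocyte exceeded the highest one <60 μm. From <60 to 60–69 μm the mean rose by 1.54 on the log2(CPM + 1) scale in replicate 1 (pooled SD 0.98) and by 0.14 in replicate 2 (pooled SD 1.00). At 70–79 μm the level was higher in both replicates. The values ran from 1.85 to 45.1 CPM with a median of 20.1 in replicate 1 (n = 16), and from 1.87 to 15.8 CPM with a median of 10.7 in replicate 2 (n = 7). From 60–69 to 70–79 μm the mean rose by 1.67 and 1.94 on the log2(CPM + 1) scale in replicates 1 and 2, more than the pooled SD of the oocytes of these groups (1.05 and 0.87).

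Between 70 and 99 μm the differences between neighbouring groups stayed within the spread of single oocytes. At 80–89 μm the oocytes of replicate 1 (n = 16) held from 8.29 to 222 CPM, with a median of 29.9. Those of replicate 2 (n = 8) held from 0 to 24.9 CPM, with a median of 7.43. At 90–99 μm the range was 12.6 to 258.5 CPM with a median of 51.4 in replicate 1 (n = 12), and 1.56 to 32.5 CPM with a median of 9.61 in replicate 2 (n = 9). In replicate 2 the mean at 80–89 μm lay below that at 70–79 μm, with a difference of -0.41 against a pooled SD of 1.37. Oocytes above 100 CPM were few before 100 μm. There were 4 of them, all in replicate 1, with diameters of 87.57, 88.4, 93.56 and 98.51 μm.

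The next step came at 100–109 μm, and both replicates showed it. In replicate 1 (n = 11) CCL25 ranged from 87.7 to 247 CPM with a median of 130, the narrowest spread of any group of that replicate on the log2 scale (SD 0.45). In replicate 2 (n = 7) it ranged from 8.27 to 108 CPM with a median of 72.6, and 6 of the 7 oocytes were above every oocyte at 90–99 μm. The mean rose by 1.29 and 2.26 on the log2(CPM + 1) scale (pooled SD 0.94 and 1.11). In replicate 1 no oocyte at 100–109 μm exceeded the highest one at 90–99 μm, so the lower end of the range rose and the upper end did not.

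Above 110 μm the replicates took different courses. In replicate 1 the values ran from 74.6 to 1517 CPM with a median of 233.03 at 110–119 μm (n = 12), and from 338 to 1518 CPM with a median of 463 at >120 μm (n = 10). In replicate 2 they ran from 19.3 to 196 CPM with a median of 50.8 at 110–119 μm (n = 7), and from 18.5 to 79.6 CPM with a median of 67.2 at >120 μm (n = 4). On the log2(CPM + 1) scale the mean of replicate 1 rose by 0.99 and by 0.85 over these steps. That of replicate 2 moved by 0.03 and by -0.02. No step above 100–109 μm exceeded the pooled SD in either replicate. Ranges of neighbouring groups overlapped at all 7 steps in both replicates, and whether the courses differed between replicates was not tested.

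**Figure D1:**
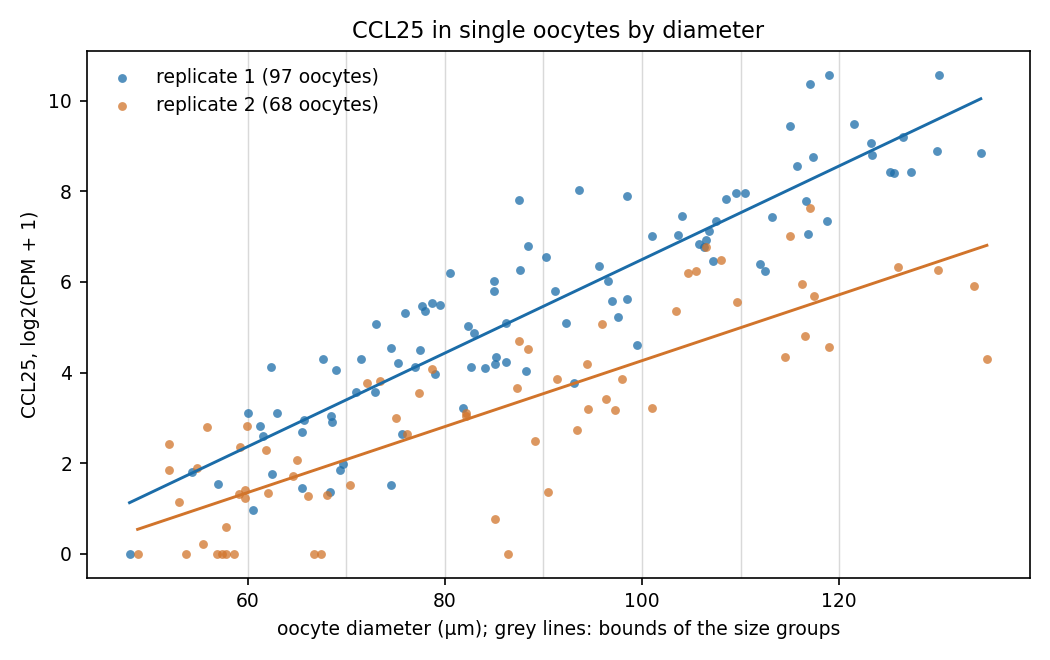
Each point is 1 oocyte, with its diameter in μm on the horizontal axis and CCL25 as log2(CPM + 1) on the vertical axis, in blue for replicate 1 (97 oocytes) and orange for replicate 2 (68 oocytes), with a straight line fitted to each. The slopes are 1.03 and 0.73 per 10 μm, and the replicates lie together in the smallest oocytes and apart in the largest.

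Summed by size group, CCL25 in replicate 1 was at 1.76, 7.74, 25.2, 44.2, 73.3, 173, 404 and 413 CPM from the smallest to the largest group. In replicate 2 the sums held 1.52, 1.71, 8.19, 6.75, 12.4, 59.7, 61.0 and 57.5 CPM. A fit to all 16 sums with the replicate as a block gave a log2 difference of 6.34 (SE 0.54) between oocytes >120 μm and <60 μm, or 80.8-fold. It was 5.53 without the <60 μm sum of replicate 1, 7.77 without that of replicate 2, and 7.87 and 5.24 in replicates 1 and 2 alone. The linear trend was 0.94 (SE 0.06) on the log2 scale per 10 μm. Of 14087 genes tested, 21 had a steeper upward trend, and the median of all genes was -0.02.

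In the 5 successive comparisons, which merge some neighbouring groups, the fitted log2 difference of CCL25 was 2.42 (SE 0.37) for 70–79 against <70 μm and 2.14 (SE 0.35) for 100–109 against 80–99 μm. It was 0.70 (SE 0.38) for 80–99 against 70–79 μm and 0.64 (SE 0.42) for 110–119 against 100–109 μm. For >120 against 110–119 μm it was -0.01 (SE 0.41). The merged group <70 μm hides the step from <60 to 60–69 μm seen in replicate 1. A sum gives more weight to deeply sequenced oocytes and to those of high level. At 110–119 μm of replicate 1, 3 of the 12 oocytes held 67.5% of the CCL25 counts, with levels of 692, 1313 and 1517 CPM. At 100–109 μm of replicate 1, 1 oocyte held 63.2% of the CCL25 counts (1740 of 2752) and 52.9% of all counts of that sum.

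CCL25 was detected, with at least 1 count, in 155 of 165 oocytes (93.9%, exact 95% interval 89.1 to 97.1). The interval is binomial over oocytes taken as independent, although they share library batches and may share animals. Reads carried no molecular identifiers, so the limit that a count of 0 allows in 1 oocyte covers counting error only. Of the 10 oocytes without a count, 7 were <60 μm, 2 were 60–69 μm and 1 was 80–89 μm. They were 1 oocyte of replicate 1, of 48.0 μm, and 9 of replicate 2. The last of these measured 86.44 μm and had a total of 4888755 counts, so 3 counts, the limit that a count of 0 allows, would be below 1 CPM there. Depth was therefore not low in this oocyte.

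By size, the share of oocytes with a count was 66.7% (14 of 21, interval 43.03 to 85.4) at <60 μm and 92% (23 of 25, interval 73.97 to 99.02) at 60–69 μm. It was 100% at 70–79 μm (23 of 23) and 95.8% at 80–89 μm (23 of 24). From 90 μm upward all 72 oocytes held a count. At an equal depth of 250000 counts per oocyte the expected share was 30.0% (<60 μm), 61.8% (60–69 μm), 91.8% (70–79 μm), 89.2% (80–89 μm) and 92.8% (90–99 μm). It was between 99.2 and 99.9% in the 3 largest groups. At equal depth the share in replicate 2 was below that of replicate 1 in all groups but <60 μm (30.2% against 29.3%). It was 34.4% against 74.7% at 60–69 μm, 84.02% against 95.2% at 70–79 μm, 68.4% against 99.7% at 80–89 μm and 83.7% against 99.6% at 90–99 μm. In the 3 largest groups it was between 97.9 and 99.7% in replicate 2, against 100% in replicate 1.

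**Figure D2:**
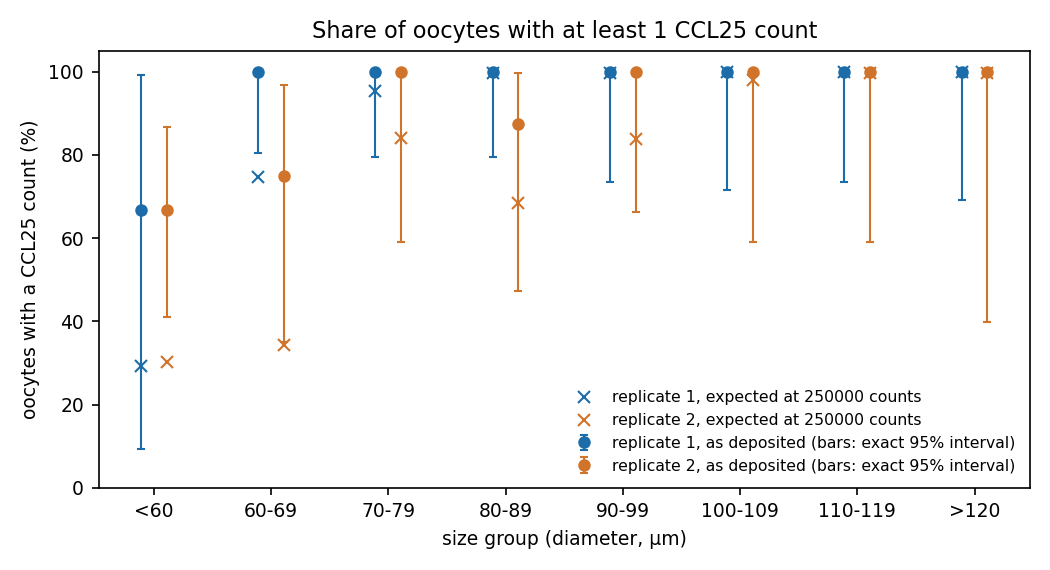
The share of oocytes with at least 1 CCL25 count (%) is plotted by size group for replicate 1 (blue) and replicate 2 (orange), dots with exact 95% binomial intervals for the deposited depth and crosses for the share expected at 250000 counts. The crosses are near 30% at <60 μm in both replicates and above 97% from 100–109 μm.

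Over all 165 oocytes, with the mean of each replicate removed, CCL25 on the log2(CPM + 1) scale followed diameter (Pearson's r 0.86, Spearman's rho 0.87). Within replicate 1 r was 0.90 (n = 97) and within replicate 2 it was 0.82 (n = 68). Leaving out the 2 oocytes of most extreme diameter gave 0.87 (n = 163). The oocytes share library batches and, possibly, animals, and the gene was chosen for this relation.

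Inside a size group, r of CCL25 with diameter was lower. A group covers a small part of the range of diameters, which lowers r by itself, so these values do not show a weaker relation. With replicate means removed, r was highest at 100–109 μm (0.54, n = 18), 70–79 μm (0.45, n = 23) and 110–119 μm (0.38, n = 19). It was 0.29 at 80–89 μm (n = 24), 0.21 at <60 μm (n = 21) and 0.16 at 90–99 μm (n = 21). At 60–69 μm (-0.08, n = 25) and >120 μm (-0.17, n = 14) it was below 0. The replicates differed, and at 60–69 μm r was 0.06 in replicate 1 (n = 17) and -0.63 in replicate 2 (n = 8). In replicate 1 alone r was highest at 110–119 μm (0.52, n = 12), with 0.42 at 70–79 μm (n = 16) and 0.39 at 100–109 μm (n = 11). In replicate 2 alone it was highest at 100–109 μm (0.67, n = 7), with 0.55 at 70–79 μm (n = 7), 0.52 at 90–99 μm (n = 9) and -0.11 at 110–119 μm (n = 7).

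A straight line without a breakpoint was preferred by the Bayesian information criterion (BIC) over continuous lines with 1 or 2 breakpoints, with a slope of 0.89 per 10 μm and an adjusted R2 of 0.80. With 1 breakpoint the line bent at 124 μm (BIC 68.7 against 65.8 for the straight line). Each replicate alone also favoured the straight line. In replicate 2 a line with breakpoints at 93 and 107 μm rose by 2.05 per 10 μm between them and had an adjusted R2 of 0.72 against 0.67, but a higher BIC (40.3 against 36.3). The step at 100 μm was therefore seen between groups. On the log2(CPM + 1) scale it was not resolved as a bend in the line through single oocytes.

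The replicates had close means at <60 μm, with a difference in log2(CPM + 1) of -0.0006, and replicate 2 was lower in every larger group. Group by group, the difference went from -1.40 (60–69 μm) to -1.13 (70–79 μm), -2.35 (80–89 μm), -2.45 (90–99 μm), -1.48 (100–109 μm), -2.44 (110–119 μm) and -3.31 (>120 μm). The ratio of the medians, replicate 1 over replicate 2, went from 1.497 at <60 μm to 6.89 at >120 μm, and only at >120 μm did the ranges not overlap. Mean diameters of the replicates were close within the groups, at 126.7 against 131.2 μm in the largest group, where the replicate with larger oocytes had the lower CCL25. In the fit to all sums, replicate 2 was lower by a log2 difference of -2.12 (SE 0.23), and 3.27% of the 14087 genes had a lower value still (median of all genes -0.16). Read length, library batch and the oocytes collected for each cannot be told apart in this difference.

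The oocytes of one size group and replicate differed widely in CCL25, and other genes varied with it. Each gene's log2(CPM + 1) was taken as a deviation from its mean in that size group and replicate. The deviations were correlated with those of CCL25 over the 165 oocytes, which share library batches. Over 14086 other genes the median r was 0.04 and the 99th percentile 0.50. The total count of the oocyte had an r of -0.03 with CCL25. Genes were named only where a symbol was paired with the ID, as it was for 2935 of them, of which most start with A, B or C.

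CDX1, a caudal-type homeobox transcription factor of the intestine, had the highest r of all genes (0.68). Its r was 0.67 in replicate 1, where that of CCNQ was higher (0.73). In replicate 2 its r was 0.73, and that of ADSL was higher (0.74). The rank correlation of CDX1 was 0.69. Its medians in replicate 1 were 207, 235, 392, 333, 418, 586, 429.18 and 767 CPM from the smallest to the largest group. In replicate 2 they were 103.8, 113.3, 215, 144.9, 115.6, 246.1, 117.1 and 214.5 CPM. CDX1 was lowest at <60 μm in both replicates but did not rise at every step, and from 100–109 to 110–119 μm its median was lower in both, where that of CCL25 was higher in replicate 1.

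CCNQ, the cyclin that activates CDK10, followed with an r of 0.67 (0.73 and 0.60 in replicates 1 and 2), the fourth of all genes. Its medians went from 188 CPM at <60 μm to 951 CPM at >120 μm in replicate 1, with a lower median at 80–89 μm (417 CPM) than at 70–79 μm, and from 97.3 to 347.1 CPM in replicate 2 with a highest median of 453 CPM at 100–109 μm. It was also among the genes most like CCL25 over the 16 sums (r = 0.96). In both views, within and between size groups, CCNQ therefore stood close to CCL25.

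Next came ADSL (an enzyme of purine synthesis, r = 0.62), BUD23 (a methyltransferase of 18S ribosomal RNA, 0.59), C7H19orf67 (0.59), BABAM1 (a member of the BRCA1-A complex, 0.58), BCS1L (an assembly factor of mitochondrial complex III, 0.58) and CLPP (a mitochondrial protease, 0.58). Over the 16 sums, with replicate means removed, r with CCL25 was 0.93 for BUD23, 0.94 for C7H19orf67 and 0.76 for BCS1L, but 0.32 for BABAM1, -0.07 for ADSL and -0.47 for CLPP. The lowest r over oocytes belonged to CHL1, a neural cell adhesion molecule (-0.55, the lowest of all genes). CNOT2, a subunit of the CCR4-NOT deadenylase (-0.52), and CCDC186 (-0.50) followed.

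**Figure D3:**
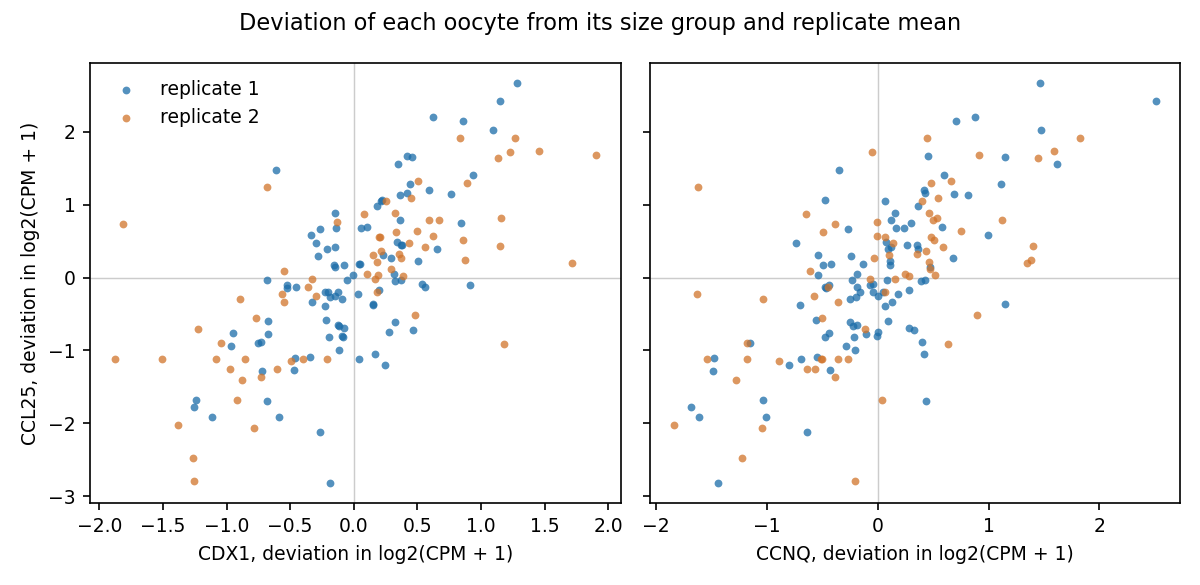
Each point is 1 of 165 oocytes, plotted by its deviation from the mean of its size group and replicate in log2(CPM + 1), for CDX1 (left) or CCNQ (right) on the horizontal axis and CCL25 on the vertical axis, in blue for replicate 1 and orange for replicate 2. CCL25 rises with both genes (r = 0.68 and 0.67), in either replicate.

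The genes that varied with CCL25 among oocytes of one size also shared its difference between replicates, although replicate means had been removed before the correlation. All 8 named genes of highest r had a lower median in replicate 2 in 8 of 8 size groups, and CHL1, CNOT2 and CCDC186 had a higher one in 8 of 8. Of the 150 genes with an r above 0.5, 150 were lower in replicate 2 in the fit to the sums, with a median log2 difference of -1.38, against 55.5% of all 14086 genes and a median of -0.16. The 9 genes with an r below -0.5 were all higher in replicate 2, with a median of 1.10. Across genes, r with CCL25 and the replicate difference had a Pearson's r of -0.61, of -0.32 with the oocytes of replicate 1 alone and of -0.62 with those of replicate 2 alone. Genes are not independent, and the part of the library batch in the co-variation within size groups was not tested.

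**Figure D4:**
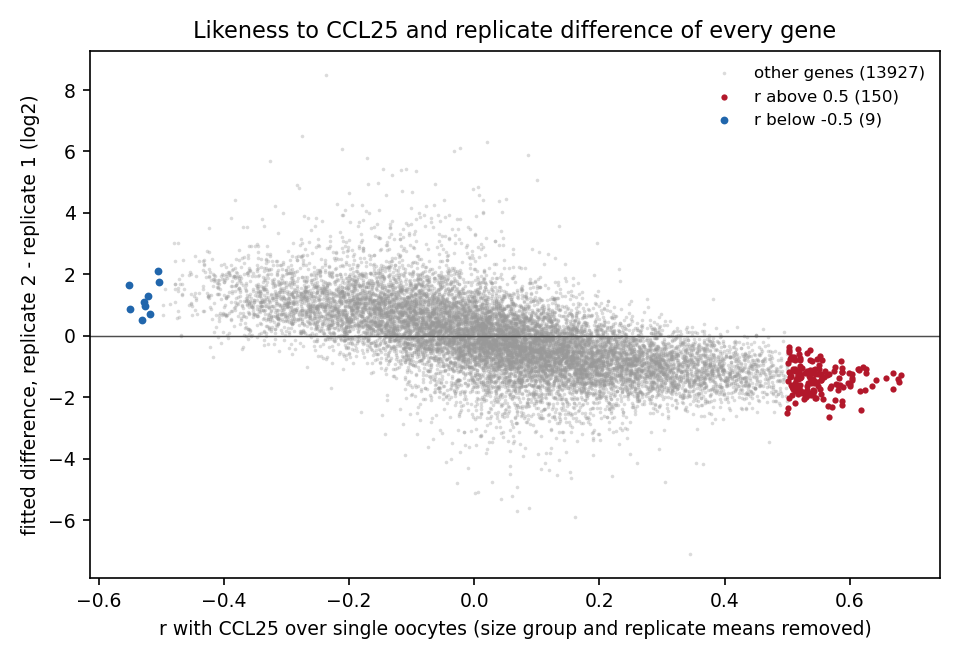
Each point is 1 of 14086 genes, with its r with CCL25 over single oocytes on the horizontal axis and its fitted log2 difference between replicates (2 minus 1) on the vertical axis. The 150 genes with an r above 0.5 (red) lie below 0 and the 9 genes with an r below -0.5 (blue) lie above 0.

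Over the 16 sums, with replicate means removed, the named genes most like CCL25 were AKR1A1 (an aldehyde reductase, r = 0.98), CCDC32 (0.97), CCNQ (0.96), C8H9orf40 (0.96) and CTSC (the lysosomal peptidase cathepsin C, 0.96). AKR1A1 had medians of 12.5 CPM at <60 μm and 464.1 CPM at >120 μm in replicate 1, and of 13.2 and 142 CPM in replicate 2. Among oocytes of one size these genes were less like CCL25, with r of 0.44 for AKR1A1, 0.40 for CCDC32, 0.08 for C8H9orf40 and 0.04 for CTSC. The genes of opposite course were CCDC42 (-0.96), TMEM256 (-0.96) and CCDC93 (a member of an endosomal sorting complex, -0.96). The 16 sums share the size groups and the rise that chose CCL25, and 170 of the 14086 genes had an r above 0.9.

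In the RefSeq gene table of assembly ARS-UCD2.0, CCL25 lies between ELAVL1 (an RNA-binding protein) and TIMM44 on one side and FBN3 (a fibrillin) and CERS4 (a ceramide synthase) on the other, and none of them overlaps it. Only CERS4 was paired with a gene ID. Its summed level lay between 24.2 and 141 CPM, with a trend of -0.07 (SE 0.03) on the log2 scale per 10 μm that was not called (adjusted p = 0.0762 by the quasi-likelihood test of edgeR). Its r with CCL25 among oocytes of one size was 0.42, and over the sums it was -0.39. How the counting treated strand is not given in the sources used here.

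Of 30 other chemokine and chemokine receptor genes with a paired ID, 12 held enough counts to be tested, and 18 did not, with totals of 1 to 69 counts over all oocytes. Of the 12, CCL27 gave no usable test of the linear trend. The linear trend over the size groups was called for 5 of the 12 (2 higher and 3 lower with size), beside 34.8% of all 14087 genes (15.4% higher, 19.4% lower). The split changed when 1 sum was left out, to 0 higher and 3 lower without the <60 μm sum of replicate 1 or the 100–109 μm sum of replicate 2, and to 3 higher and 0 lower without the >120 μm sum of replicate 2. It was 1 higher and 0 lower without the <60 μm sum of replicate 2. Without the >120 μm sum of replicate 1 it was 0 higher and 2 lower. The median trend of the 12 was -0.002 on the log2 scale per 10 μm, beside -0.02 for all genes. The trends called were between -0.25 and 0.54, against 0.94 for CCL25. Adjusted p-values in this part are from the quasi-likelihood test of edgeR and were adjusted by Benjamini-Hochberg over all genes tested.

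Among the ligands, CCL1, a CC chemokine that acts through CCR8, was called lower with size (-0.12 per 10 μm, SE 0.04, adjusted p = 0.0131). Its sums in replicate 1 held 18.1, 32.5, 56.0, 47.5, 51.9, 50.9, 32.5 and 10.2 CPM from the smallest to the largest group. In replicate 2 they held 35.7, 46.2, 64.1, 102, 66.7, 37.1, 46.6 and 12.3 CPM. The level was highest between 70 and 99 μm and lowest at >120 μm in both replicates, so a straight trend gives only part of its course. The call was lost without the <60 or the >120 μm sum of replicate 2 (adjusted p = 0.139 and 0.110, trend -0.08 and -0.10) and with all 179 oocytes (0.137).

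CXCL12, the ligand of CXCR4, was called lower with size (-0.25 per 10 μm, SE 0.08, adjusted p = 0.0167). In replicate 1 its sums held 1.47, 4.38, 4.30, 3.01, 4.63, 2.76, 0.939 and 2.04 CPM. In replicate 2 they held 3.98, 3.04, 3.14, 2.15, 2.21, 1.76, 0.335 and 0.932 CPM. The lowest value was at 110–119 μm in both replicates, and the call was lost without the <60, 110–119 or >120 μm sum of replicate 2 (adjusted p = 0.244, 0.0586 and 0.102). Without the first of these the trend was -0.12 in place of -0.25, and without the other two it was -0.21.

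CXCL13, the ligand of CXCR5, was called higher with size (0.54 per 10 μm, SE 0.16, adjusted p = 0.0153) with counts in 29 oocytes. Its sums were at 0 CPM in 3 of 8 groups of replicate 1 (<60, 60–69 and 100–109 μm) and between 0.182 and 0.746 CPM in the others. In replicate 2 they lay between 0.0475 and 0.932 CPM except at 110–119 μm, where 34 counts gave 3.796 CPM. Without the 100–109 μm sum of replicate 2 that group held no count, so the fit gave no usable test (adjusted p = 1.0), and the trend was 0.40. The call was lost without the <60 or >120 μm sum of replicate 1 or the 110–119 μm sum of replicate 2 (0.0521 to 0.0930) and with all 179 oocytes (0.0791). Without the <60 μm sum of replicate 2 the trend was 0.86. The rise of CXCL13 was thus that of a transcript near the limit of detection.

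CCL3, CCL26, CCL27, CCL28 and CXCL16 were tested and not called. For CCL27 both replicates held 0 counts at <60, 70–79 and 110–119 μm, so the fit gave no usable test of the trend (SE 184.6). CXCL16, a transmembrane chemokine that is shed from the cell surface, had sums between 3.66 and 15.2 CPM and a trend of -0.01 (SE 0.06). Among oocytes of one size it had the highest r with CCL25 of the tested chemokine genes (0.33), well below CDX1.

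Among the receptors, CXCR4, the receptor of CXCL12, was counted in 165 of 165 oocytes, with sums between 58.5 and 270 CPM and a trend of 0.00 (SE 0.04) that was not called. Replicate 1 was at 143 CPM at <60 μm and 231 CPM at >120 μm, and replicate 2 at 88.3 and 58.5 CPM, so the ends of growth moved in opposite directions in the replicates. CXCR5, the receptor of CXCL13, was called lower (-0.22 per 10 μm, SE 0.07, adjusted p = 0.0265), with 2.43 CPM at <60 μm, a highest value of 8.83 CPM at 80–89 μm and 2.32 CPM at >120 μm in replicate 1. In replicate 2 it went from 6.45 CPM at <60 μm to 1.63 CPM at >120 μm. Without the <60 μm sum of replicate 2 it was not called (adjusted p = 0.483) and the trend was -0.07 in place of -0.22, and it was not called without the 60–69, 70–79, 80–89, 110–119 or >120 μm sum of replicate 1 or the 110–119 or >120 μm sum of replicate 2 (0.0530 to 0.122).

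CCR8, the receptor of CCL1, was not called in the trend (0.15 per 10 μm, SE 0.06, adjusted p = 0.0537). Its sums in replicate 1 held 7.28, 8.71, 7.12, 4.38, 5.26, 8.72, 5.84 and 22.2 CPM from the smallest to the largest group. In replicate 2 they held 1.31, 2.00, 1.66, 0.419, 0.580, 3.99, 2.57 and 3.03 CPM. The level was lowest at 80–89 μm in both replicates, and in replicate 1 the value at 100–109 μm was about that at 60–69 μm and only >120 μm stood above them. ACKR2, a scavenger of inflammatory CC chemokines, was called higher (0.10 per 10 μm, SE 0.04, adjusted p = 0.0413). It lay between 18.2 and 27.1 CPM in replicate 1, except for 57.7 CPM at 110–119 μm, and between 8.12 and 13.5 CPM in replicate 2. Its call was lost when the 110–119 μm sum of replicate 1 was left out (adjusted p = 0.136), and without the <60, 60–69, 70–79 or >120 μm sum of replicate 1 or the <60, 60–69 or 100–109 μm sum of replicate 2 (0.0515 to 0.128). On total counts in place of effective library sizes it was not called either (adjusted p = 0.0754).

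**Figure D5:**
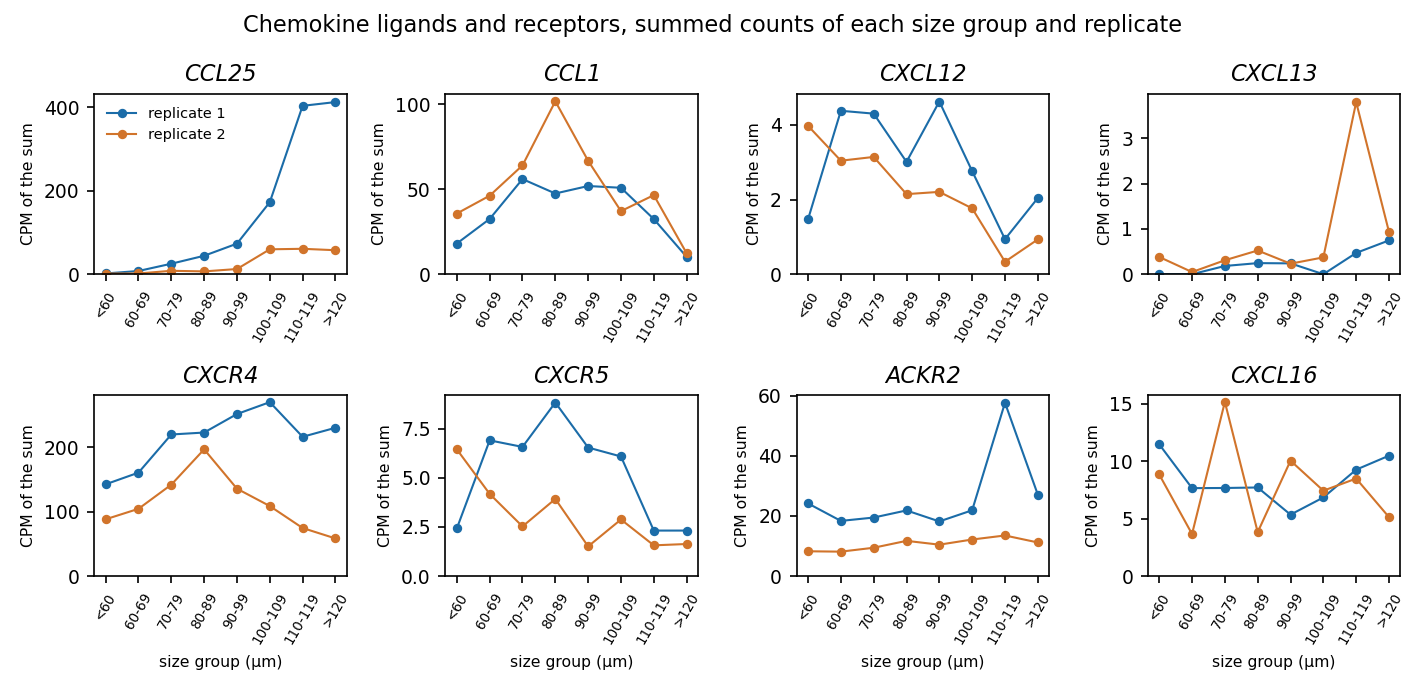
CPM of the summed counts is plotted by size group for CCL25 and for 7 of the 12 tested chemokine genes, in blue for replicate 1 and orange for replicate 2, each panel on its own axis from 0. CCL25 goes from 1.76 to 413 CPM in replicate 1, whereas CCL1 is highest in mid-growth and CXCR4 goes opposite ways at the ends in the replicates.

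In the 5 successive comparisons none of the 12 chemokine genes was called (0 of 12, beside 4.39% of all genes). At an unadjusted p under 0.05 there were 5, beside 43% of all genes by the same rule, which were CCL1, CXCL12, CXCL13, CCR8 and ACKR2. DESeq2 called 2 of 12, beside 15.2% of all genes, CCL1 for >120 against 110–119 μm (log2 difference -1.81, adjusted p = 0.00350) and CCR8 for 100–109 against 80–99 μm (1.86, adjusted p = 0.0183). In the edgeR fit the same differences were -1.78 (SE 0.35, adjusted p = 0.296) and 1.83 (SE 0.48, adjusted p = 0.0826).

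Of 3 genes of chemokine release and receptor regulation, 1 was called, a share near the 34.8% of all genes. ADAM10, a protease that sheds membrane-bound chemokines, was higher with size (0.11 per 10 μm, SE 0.04, adjusted p = 0.0239). Its sums lay between 38.3 and 127 CPM in replicate 1 and between 138 and 376 CPM in replicate 2, so that its difference between the replicates was opposite to that of CCL25. It was not called without the <60 or 60–69 μm sum of replicate 2 or the 110–119 μm sum of replicate 1 (adjusted p = 0.0505 to 0.0654). ADAM17, a related protease (-0.07, SE 0.04, adjusted p = 0.154), and ARRB1, an arrestin of such receptors (0.14, SE 0.16, adjusted p = 0.517), were not called.

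Markers of the cells that surround oocytes were set beside the CCL25 values. The 4 granulosa and theca markers together stayed at or below 16.1 CPM in every oocyte, with medians of 0 to 0.821 CPM in the size groups and an r of -0.10 with CCL25 among oocytes of one size. FSHR, the receptor of follicle-stimulating hormone, was counted in 45 oocytes, and AMHR2, CYP11A1 and CYP17A1 in 9 or 10 each. The 3 endothelial markers together were at most 5.83 CPM (r = 0.13), and CDH5 and CD34 were counted in 4 and 2 oocytes. CLDN5, a tight junction protein, was counted in 41 oocytes, with 193 counts in all and a trend that was not called (0.24 per 10 μm, SE 0.16, adjusted p = 0.244).

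The 4 stroma markers together ranged from 0 to 55.5 CPM, with group medians from 6.12 CPM at <60 μm to 21.6 CPM at 70–79 μm (r = 0.21). COL1A1 and COL3A1 were counted in 2 and 4 oocytes, and COL1A2, a collagen chain, was called higher with size (0.31 per 10 μm, SE 0.07, adjusted p = 0.00307). Its sums went from 0.147 CPM at <60 μm to 9.38 CPM at >120 μm in replicate 1 and from 1.67 to 8.39 CPM in replicate 2. Over the sums its r with CCL25 was 0.78 (0.86 in replicate 1 and 0.60 in replicate 2), and among oocytes of one size it was 0.13. ACTA2, a smooth muscle actin, was not called (-0.15 per 10 μm, SE 0.09, adjusted p = 0.195), with sums from 4.48 to 20.4 CPM in replicate 1 and from 0 to 9.22 CPM in replicate 2, and an r over the sums of -0.15. The part of these markers in the CCL25 values was not tested. The 9 blood and immune markers together ranged from 8.13 to 247 CPM (r = 0.15), most of the counts being those of CSF1R, the receptor of a macrophage growth factor, which was counted in 165 of 165 oocytes. CD14, C1QB, CD79A and CD4 were counted in 1, 2, 4 and 4 oocytes, and CD68, CD74 and CD163 in 64, 30 and 23. CD74 was called lower with size (adjusted p = 0.00278), but it held 168 counts in all and none in either replicate from 100 μm upward, so the size of the fitted trend depends on the prior count and is not given. CD68, a macrophage glycoprotein, was not called (0.21 per 10 μm, SE 0.14, adjusted p = 0.283). In replicate 1 its sums went from 0 CPM at <60 μm to 1.29 CPM at >120 μm, and over the 8 sums of that replicate its r with CCL25 was 0.95. In replicate 2 the r was 0.05, with no count at >120 μm, and among oocytes of one size it was 0.15. The part of CD68 was not tested either. FSHR, CSF1R, CD247 and CD163 had trends below 0 that were not called (adjusted p = 0.0773 to 0.861). In the successive comparisons CSF1R was called lower for 110–119 against 100–109 μm (log2 difference -1.39, SE 0.34, adjusted p = 0.0396 by the quasi-likelihood test of edgeR). CD247 was counted in 143 oocytes, as were ACTA2 and COL1A2. Apart from these and CSF1R, markers of the other cells were at 0 in most oocytes.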

How the data were processed

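Counts per gene of single bovine oocytes were used. Reads were trimmed by the authors in Trim Galore (version 0.6.6), aligned to assembly ARS-UCD1.2 with HISAT2 and quantified per gene in SeqMonk. Deposited values are raw counts, with no normalization or correction for replicate. The handling of strand, overlapping genes and multiply aligned reads is not given in the sources used here. The 165 oocytes of the final set of the study were used, and counts of a gene ID on several lines were summed. Symbols came from copies of the supplementary tables that hold part of their entries (3608 IDs paired).

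CCL25, the comparison genes and the lists were chosen with earlier results of these data known. For single oocytes, CPM used TMM effective library sizes and was taken as log2(CPM + 1). Fold changes and SDs on that scale understate changes at low levels. Detection was also given at 250000 counts per oocyte (exact expectation), with exact 95% binomial intervals. Lines with 0 to 2 breakpoints were compared (grid step 2 μm, each segment holding 10 oocytes or more).

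For tests, counts were summed by size group and replicate (16 sums), filtered with filterByExpr (minimum count 10, minimum total 15), which left 14087 genes, and fitted with 8 groups and the replicate as a block in edgeR (version 4.0.16). The quasi-likelihood test with Benjamini-Hochberg adjustment was called at 0.05. The trend weighted the groups by their mean diameter. The replicate number marks a library batch. The 28 pairs of size groups deviated together between replicates (r 0.334 to 0.648), so the number pairs the sums. Since the animals are not named, p-values measure the spread between these sums. The fit was tested on simulated data.

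Named genes were CCL25, chemokine genes with a call, genes of highest and lowest r with CCL25 that carry a symbol (8 and 3 over oocytes, 5 and 3 over sums), neighbours and cell markers. CCR8, CXCR4, CXCL16, ADAM17, ARRB1 and the genes listed as not called were named after their values were seen, to account for the list. Also tried were RLE normalization, no replicate block, DESeq2 (version 1.42.0), no filter, single oocytes as units, all 179 oocytes, each sum left out, each replicate alone, other pseudocounts and, chosen after seeing the data, total counts as library size for the list and a pseudocount of 10 CPM for the breakpoints. Software was R 4.3.3 and Python 3.11.15 (scipy 1.17.1, pandas 2.3.3, numpy 2.4.6, matplotlib 3.10.9).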

Additional observations from a re-analysis of the deposited data

Results flagged for a closer look

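In oocytes 100–109 μm of replicate 2, the lowest oocyte (8.27 CPM of CCL25) lay far from the others, with a gap of 0.60 of the range of the 7 oocytes on the log2 scale. At >120 μm of replicate 1 the highest oocyte (1518 CPM) lay 0.50 of the range above the next of 10. Of the groups by size and replicate, 8 had 4 to 10 oocytes and were examined, and chance alone flags about 1 in 20 groups.

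Of the 14 oocytes outside the final set of the study, 4 held more than 3 CCL25 counts. They held 39 counts (7.90 CPM of the total, 53.97 μm, replicate 1), 45 counts (24.6 CPM, 102.46 μm, replicate 1), 6 counts (3.07 CPM, 106.5 μm, replicate 2) and 1469 counts (401 CPM, 139.09 μm, replicate 1). The first was above every oocyte <60 μm of the final set, the next pair lay below every oocyte at 100–109 μm of their own replicate, and the last lay within the range of its group.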

How the results depend on the processing

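The number of chemokine genes with a called trend was 5 of 12. It was 6 of 12 with RLE normalization and with DESeq2, 4 of 12 with total counts and with all 179 oocytes, 6 of the 30 tested with no filter and 5 of the 8 tested with single oocytes. With no replicate block it was 0 (3 at an unadjusted p under 0.05), the call of ADAM10 was lost too, and it ranged from 1 to 6 when 1 sum was left out. It was 1 without the <60 μm sum of replicate 2, 2 without the >120 μm sum of replicate 1 or the 110–119 μm sum of replicate 2, and 3 without the <60, 60–69 or 70–79 μm sum of replicate 1 or the 100–109 or >120 μm sum of replicate 2. In the successive comparisons the count was 0, against 2 with DESeq2, with no filter and with single oocytes as units, and it ranged from 0 to 2 when 1 sum was left out (1 without the <60 μm sum of replicate 2, 2 without the 110–119 μm sum of replicate 2). The called trends of CCL1, CXCL12, CXCL13, CXCR5, ACKR2 and ADAM10 kept their direction under every alternative. CXCL13 was left out of the single-oocyte fit by its filter. Over the alternatives, adjusted p-values (edgeR's quasi-likelihood test or DESeq2) ran from 0.00556 to 0.154 for CCL1, 0.000311 to 0.244 for CXCL12, 0.00354 to 1.0 for CXCL13 (the last where a group was left with no count), 1.2e-05 to 0.483 for CXCR5, 1.01e-05 to 0.489 for ACKR2 and 1.3e-07 to 0.512 for ADAM10. Except for CXCL13 (DESeq2), the lowest of these values came from the fit with single oocytes as units, which share library batches. The cause of the ranges was not tested.

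The log2 difference of CCL25 between >120 and <60 μm was 6.34. It was 7.16 with no replicate block, 5.53 and 7.77 without the <60 μm sum of replicate 1 and of replicate 2, which span the range over sums left out, and 7.87 and 5.24 in replicates 1 and 2 alone. From means of single oocytes it was 6.24, and 7.71 or 3.97 with a pseudocount of 0.1 or 10 CPM in place of 1. With 10 CPM, a line with 1 breakpoint, at 68 μm, was preferred to the straight line (BIC -30.2 against -24.0). A line with breakpoints at 94 and 124 μm was close to it (BIC -29.1). The overall share of oocytes with a count was 93.9%, 90.3% with at least 2 counts and 81.6% at equal depth. The r of CDX1 was 0.73 in replicate 2 alone.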
